A study of Rattus norvegicus with 36 samples.

Results

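The congenic rat strains S2Ba and S2Bb were compared directly in the aorta after a high salt diet. Every library under the S2Ba or S2Bb high salt heading with values was taken, which gave 11 of the 34 libraries with values, 5 of S2Ba and 6 of S2Bb; the labels list 6 samples in each group, and S2Ba high salt replicate 2 was not analysed here. Both groups were male rats on the Dahl salt-sensitive (SS) background, so every animal carried that background. S2Ba rats hold Brown Norway (BN) sequence in the distal portion of chromosome 2 and S2Bb rats hold it in a middle segment. They began the diet, which contained 4% NaCl, at 4 to 6 weeks of age and stayed on it until 12 to 13 weeks. RNA came from the descending part of the thoracic aorta, and the 12 normal salt libraries of the same strains, 6 and 6, are shown beside the high salt values. The sources used here give no borders for the segments, and a gene that differs may carry BN sequence in either strain. Whether each sample was a different rat is not stated in words, so p-values refer to the variation among these libraries and no further.

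SS rats become hypertensive when fed salt, and congenic strains, in which a piece of chromosome from a normotensive strain replaces the SS piece, are used to find the region of the genome behind such a trait. The muscle cells of the aorta respond to angiotensin II through type 1 receptors, are held relaxed by potassium channels and nitric oxide, and use calcium to contract. Rats have a pair of type 1 receptor genes, Agtr1a and Agtr1b.

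Recovered depth was 11106259 to 13004721 reads in the S2Ba libraries and 9882071 to 12597756 in the S2Bb libraries. A value is reads scaled by the authors to a common library size and is called a normalised read value below. Smooth muscle markers summed to 19180 to 21270 in S2Ba and 19130 to 26300 in S2Bb, and the list of 8 cardiac muscle markers, of which 2 (Nppa and Myl7) were at 0 in all 11 libraries and 1 (Ryr2) reached the mean required for the test, to 239 to 319 and 198 to 294.6. Ryr2, a calcium release channel that is also in the calcium handling list, alone read 238.8 to 318 in S2Ba and 197 to 293.6 in S2Bb. In bulk tissue, fewer cells of a type and less RNA per cell cannot be told apart. Correlations of log values lay between 0.965 and 0.990 within groups and between 0.967 and 0.986 between groups. Summed erythroid markers were 107 to 2369 in S2Ba, highest in replicate 3, and 47.3 to 266.7 in S2Bb.

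Of 13360 genes tested, 42 differed between the strains on high salt (limma, Benjamini-Hochberg adjusted p under 0.05; 0.314% of the genes tested), 24 higher in S2Ba (0.18%) and 18 lower (0.135%). A further 12746 genes in the table had a mean under 0.5 and were not tested. Of the 42 genes, 21 differed by 2-fold or more (0.157% of those tested), and 40 had groups that did not overlap (against 1.67% of all tested genes). The calls were made on the same libraries, so that separation is no added support. The median difference over all genes was 0.00 on the log2 scale. A few were far larger than most, and the largest was that of the row AABR07012585.3 (-6.15). Among called genes matched to a chromosome, Kcnab1 and Agtr1b had the largest in each direction. Kcnab1, an auxiliary beta subunit of voltage-gated potassium channels, was low in S2Ba, and Agtr1b, a type 1 angiotensin II receptor, was low in S2Bb. The count of called genes varied with single libraries. It was 13 without S2Ba replicate 1, 26 without replicate 3, 18 without replicate 4 and 18 without replicate 6; it was 102 without S2Bb replicate 1, 23 without replicate 2, 12 without replicate 4, 12 without replicate 5 and 24 without replicate 6. The call of 12 genes held in every fit that left out 1 library, and that of 11 held in every alternative in which they were tested. The 11 were Kcnab1, Agtr1b, Nlgn1, Slc9b1, Adh7, Shc1, Rbm46 and Meis1, with AABR07012585.3, AABR07043421.1 and AABR07037536.1, whose symbols were not matched to a chromosome.

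The promoter windows of the 4 chromosome 2 genes with a mean of at least 1 and a log2 difference beyond 2 are shown because these genes had a high level in one strain and a low or near-zero level in the other. They are RefSeq sequences of the reference strain BN/NHsdMcwi (GRCr8), 250 bases before to 50 after the annotated start, and are not the SS allele. Capitals mark the letters of a TATA box (TATAAA), a GC box (searched as GGGCGG), an E-box (searched as CACGTG) or a CCAAT box, on either strand.
Kcnab1 (chr2:151614301-151614600, plus strand): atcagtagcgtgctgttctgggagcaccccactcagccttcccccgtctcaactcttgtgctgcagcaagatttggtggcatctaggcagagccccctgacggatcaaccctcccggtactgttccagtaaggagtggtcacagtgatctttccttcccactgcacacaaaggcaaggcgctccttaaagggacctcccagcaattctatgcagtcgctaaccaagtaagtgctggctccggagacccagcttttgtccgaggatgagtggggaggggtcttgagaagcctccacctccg
Agtr1b (chr2:104849213-104849512, minus strand): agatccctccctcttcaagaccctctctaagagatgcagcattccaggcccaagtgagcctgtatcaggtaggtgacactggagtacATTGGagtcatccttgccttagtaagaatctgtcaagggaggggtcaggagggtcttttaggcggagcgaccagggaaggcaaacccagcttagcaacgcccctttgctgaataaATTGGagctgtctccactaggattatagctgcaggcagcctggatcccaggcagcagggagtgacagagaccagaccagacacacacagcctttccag
Nlgn1 (chr2:110930627-110930926, minus strand): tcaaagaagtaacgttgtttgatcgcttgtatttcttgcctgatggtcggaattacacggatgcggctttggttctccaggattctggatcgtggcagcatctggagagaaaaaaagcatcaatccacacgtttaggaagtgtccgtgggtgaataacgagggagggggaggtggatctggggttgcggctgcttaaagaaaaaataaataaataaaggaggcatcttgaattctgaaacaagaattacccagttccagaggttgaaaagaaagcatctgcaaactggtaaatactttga
Adh7 (chr2:229421875-229422174, plus strand): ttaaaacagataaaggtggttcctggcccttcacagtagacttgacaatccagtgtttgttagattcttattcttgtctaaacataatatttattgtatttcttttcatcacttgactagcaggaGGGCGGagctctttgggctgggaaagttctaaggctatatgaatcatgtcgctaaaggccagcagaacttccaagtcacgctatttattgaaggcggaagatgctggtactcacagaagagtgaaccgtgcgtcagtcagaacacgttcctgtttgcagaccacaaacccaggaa
Agtr1b held the CCAAT letters at 2 places, both on the opposite strand, Adh7 held 1 GC box, and none of the 4 motifs was found in the windows of Kcnab1 and Nlgn1. Among all 33469 rat promoter windows of this length, 14.2% hold the TATA box, 33.1% the GC box, 6.42% the E-box and 37.5% the CCAAT box. Of the 24 called chromosome 2 genes 22 have a window in the table, and 4 of those 22 hold the TATA box, 11 the GC box, 2 the E-box and 8 the CCAAT box. Motif matches describe letters and are not binding sites.

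**Figure D1:**
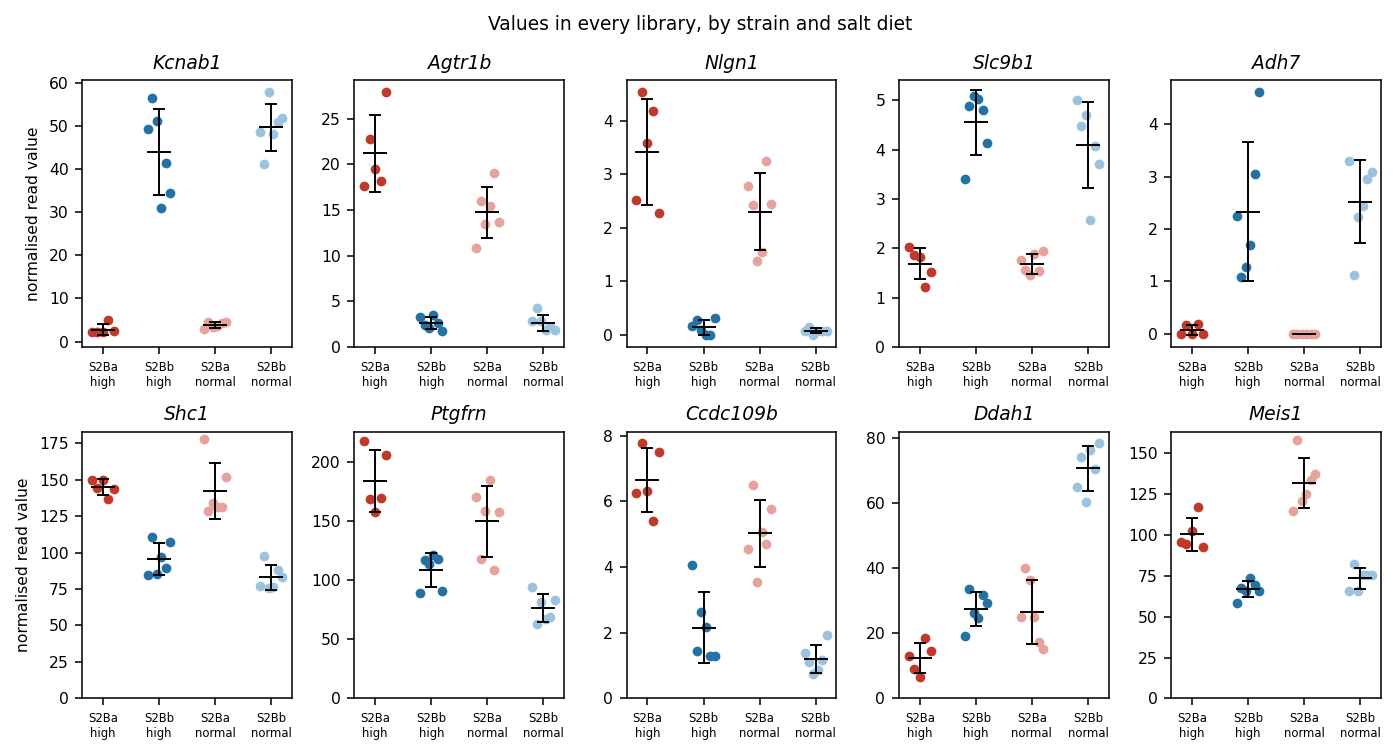
Normalised read values of 10 genes that differed on high salt, one point per library, for S2Ba and S2Bb on high salt (dark) and normal salt (pale); bars are mean and SD. Kcnab1 lay between 2.11 and 4.98 in S2Ba and between 31.1 and 56.6 in S2Bb on high salt, and the order of the strains was the same on normal salt for all 10 genes.

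Kcnab1 read 2.11, 2.11, 2.17, 4.98 and 2.53 in the S2Ba high salt libraries and 31.1 to 56.6, median 45.4, in the S2Bb libraries. No library of one strain came near the other, and S2Ba replicate 5 was the highest of its group. The means were 2.78 ± 1.24 (SD, n = 5) and 44.0 ± 9.997 (n = 6), a log2 difference of -3.80 (SE 0.21, adjusted p 5.38e-07 in limma). On normal salt the same difference was -3.53 (adjusted p 2.75e-10).

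Agtr1b read 17.6, 22.8, 19.5, 18.2 and 27.9 in S2Ba and 1.78 to 3.48, median 2.53, in S2Bb. The groups were far apart, with means of 21.2 ± 4.25 and 2.62 ± 0.679 and a log2 difference of 2.81 (SE 0.17, adjusted p 9.29e-07 in limma). On normal salt the difference was 2.303 (adjusted p 1.00e-05), with S2Ba at 14.8 ± 2.78. Its paralog Agtr1a, on chromosome 17, read 10.7 to 17.6 in S2Ba and 10.2 to 19.3 in S2Bb, with a log2 difference of -0.11 (95% interval -0.49 to 0.26, adjusted p 0.84 in limma). The receptor genes are close copies, how the authors assigned reads that fit both is not given. On normal salt the Agtr1a difference was -0.40 (unadjusted p 0.000894, adjusted p 0.0619 in limma), opposite in sign to that of Agtr1b.

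Among the other large differences on chromosome 2, Nlgn1, which encodes the synaptic adhesion protein neuroligin 1, read 2.52, 4.53, 3.58, 4.19 and 2.27 in S2Ba and 0 to 0.324 in S2Bb, where the 6 libraries together held 10 reads. All S2Ba libraries lay above all S2Bb libraries, and the log2(value + 0.5) difference of 2.60 (SE 0.22, adjusted p 3.88e-05 in limma) understates the ratio of such low values. Adh7, an alcohol and retinol dehydrogenase of epithelia, ran the other way. It read 0, 0.162, 0, 0.175 and 0 in S2Ba (4 reads in all) and 1.08 to 4.61, median 1.97, in S2Bb (165 reads), a log2 difference of -2.21 (SE 0.28, adjusted p 0.00351). On normal salt S2Ba held 0 reads of Adh7 against 200 in S2Bb, so it was at least 57.3-fold lower there, taken against a floor of 3 reads over the group. Rbm46, an RNA-binding protein of germ cells, had 1 read over the S2Ba libraries and 114 over the S2Bb libraries (log2 difference -2.02, adjusted p 1.75e-04).

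Of the genes that mark ion and calcium handling, Slc9b1, a sodium/hydrogen exchanger, was lower in S2Ba: it read 2.03, 1.86, 1.83, 1.22 and 1.52 there and 3.41 to 5.08, median 4.84, in S2Bb, without overlap (log2 difference -1.21, SE 0.15, adjusted p 0.00283 in limma). Its neighbour and paralog Slc9b2 leaned the other way, at 19.6 ± 2.81 in S2Ba and 12.9 ± 2.84 in S2Bb, but did not pass in limma (adjusted p 0.161); DESeq2 called it. Ccdc109b, which encodes a subunit that dampens the mitochondrial calcium uniporter, read 6.25, 7.77, 6.33, 5.41 and 7.50 in S2Ba and 1.29 to 4.08, median 1.82, in S2Bb. The groups did not overlap, and the log2 difference was 1.51 (SE 0.23, adjusted p 0.0171); it was called in 7 of the 11 fits that left out 1 library. Kcnc4, a subunit of voltage-gated potassium channels of the Kv3 kind, read 0.505 to 1.83 in S2Ba and 0 to 0.271 in S2Bb, and was higher in S2Ba by 1.51 (adjusted p 0.0171) on reads of 84 and 10.

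Shc1, which encodes an adaptor between growth factor receptors and Ras, was the best expressed of the genes whose call held throughout. It read 144.7 ± 5.56 in S2Ba, where the lowest library was at 136.5, and 84.5 to 111, median 93.1, in S2Bb. S2Ba was higher in every library, by 0.60 on the log2 scale (SE 0.08, adjusted p 0.00509). Ptgfrn, a membrane protein that binds tetraspanins, read 158 to 218 in S2Ba and 89.5 to 121 in S2Bb, a difference of 0.76 (adjusted p 0.0114), and kept its call in every fit that left out 1 library.

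Ddah1 and Gja5 are the vascular genes among the calls that were lower in S2Ba. Ddah1 encodes an enzyme that breaks down asymmetric dimethylarginine, an inhibitor of nitric oxide synthase. It read 12.98, 9.07, 6.58, 18.5 and 14.4 in S2Ba and 19.2 to 33.4, median 27.8, in S2Bb. The lowest S2Bb library, replicate 1, lay just above the highest S2Ba library, and the log2 difference was -1.19 (SE 0.22, adjusted p 0.0425 in limma). The call was made in 2 of the 11 fits that left out 1 library. On normal salt the levels were higher in both strains, 26.5 ± 9.89 and 70.6 ± 6.92, and the difference was -1.48 (adjusted p 0.00205). Gja5, the gap junction protein connexin 40 of endothelium, read 45.8 ± 9.13 in S2Ba and 83.0 ± 18.5 in S2Bb, with overlapping libraries and a difference of -0.84 (adjusted p 0.0466); it was called in 4 of the 11 fits that left out 1 library.

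The remaining chromosome 2 genes differed by 0.55 to 1.53 on the log2 scale. Bbs12, Gstm1, St7l, Igsf3, Polr3gl and Col24a1 were lower in S2Ba. Among them Gstm1, a glutathione transferase, read 8.73 ± 0.92 in S2Ba and 14.5 ± 2.38 in S2Bb (log2 difference -0.70, adjusted p 0.0304). Lrrc7, Pla2g12a, Acad9, Tigd4, Slc39a8 and Dclk1 were higher. Acad9, an assembly factor of respiratory complex I, read 24.6 ± 1.35 against 16.5 ± 2.26 (log2 difference 0.57, adjusted p 0.0321), and Slc39a8, a zinc and manganese importer, 7.88 ± 1.803 against 4.03 ± 0.824 (0.88, adjusted p 0.0425). Each of these 12 genes lost its call in at least one fit that left out 1 library.

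The positions of the called genes were read from the RefSeq annotation by symbol, and 33 of the 42 matched. Of these 24 (72.7%) were on chromosome 2. The called share was 2.98% of the 806 tested chromosome 2 genes, 0.0796% of the 11312 genes on other chromosomes and 0.725% of the 1242 that had no match. Chromosome 2 calls were split evenly, 12 higher and 12 lower in S2Ba. With the calls counted in, 21.2% of chromosome 2 genes had an unadjusted p under 0.05, against 10.7% on other chromosomes and 11.7% of all genes. The median size of the log2 difference was 0.15 on chromosome 2 against 0.12 on other chromosomes. The groups did not overlap for 46 chromosome 2 genes (5.71%) and for 150 genes on other chromosomes (1.33%), calls included.

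Along the chromosome, no gene was called before Agtr1b, which is the annotated gene in place 1098 of 3186, although 239 tested genes precede it. The last called gene, Lrrc7, is in place 3171 and has 2 tested genes after it. When the tested genes were put into 8 consecutive stretches of 100 or 101 genes, calls fell as 0, 0, 4, 4, 1, 4, 5 and 6 from start to end. On normal salt they fell as 0, 1, 6, 7, 5, 4, 7 and 9. The calls therefore lay over the middle and distal part of the chromosome on both diets, with the first of the 8 stretches holding none.

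**Figure D2:**
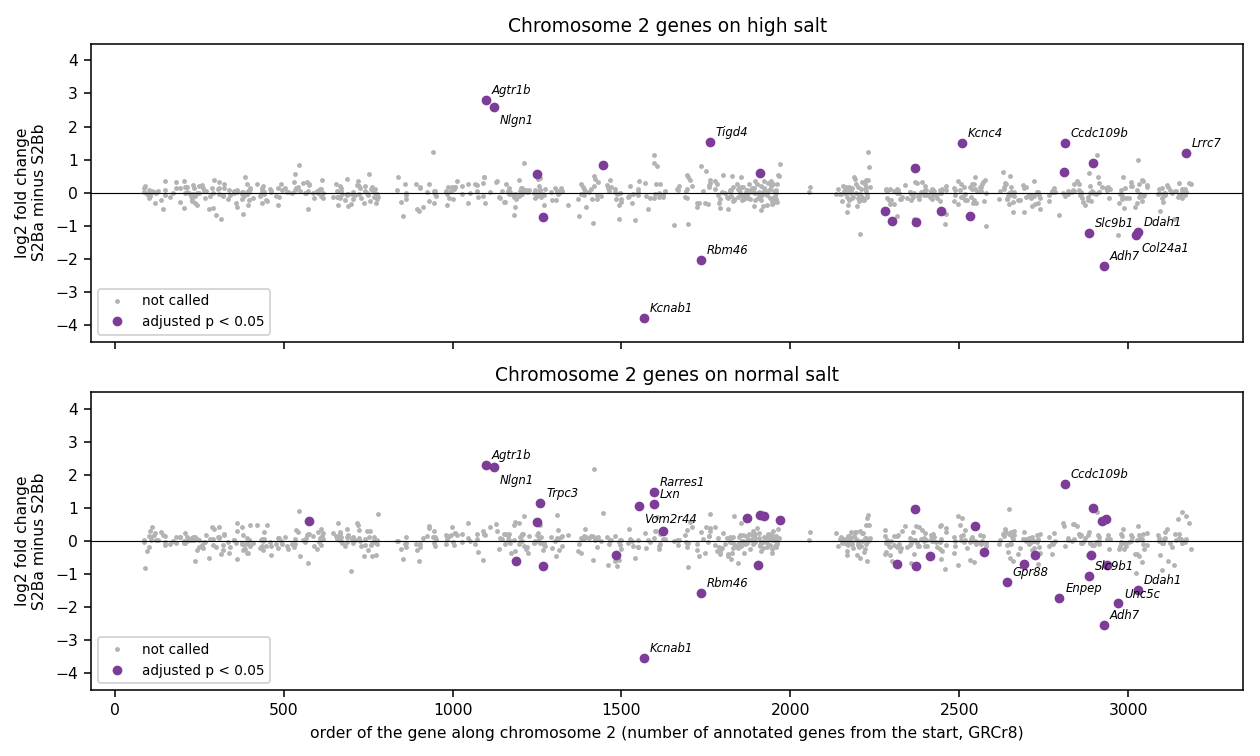
Log2 fold change (S2Ba minus S2Bb) of each tested chromosome 2 gene against its order along the chromosome, on high salt (top) and normal salt (bottom); purple points were called at an adjusted p under 0.05. Calls on high salt begin at Agtr1b (2.81) and Nlgn1 (2.60) and continue to Lrrc7 (1.19), with Kcnab1 (-3.80) the lowest.

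The strain difference was compared between diets in libraries that the high salt comparison does not use. On normal salt 140 genes were called (1.05% of those tested), 39 of them on chromosome 2 (4.84%), against 0.769% of genes on other chromosomes and 1.13% of those without a match. Of the 42 high salt genes 20 were called on both diets, which is 47.6% of the high salt calls and 14.3% of the normal salt calls. All 24 chromosome 2 genes had the same sign on both diets, and 14 were called on both. Of the 9 genes on other chromosomes 7 had the same sign and 1, Meis1, was called on both. Of the 9 unmatched genes 5 had the same sign and 5 were called on both, 1 of which was 5S_rRNA with opposite signs.

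A direct test of whether the strain difference changed with diet called 1 of 13360 genes (0.00749%) in limma, against 1075 at an unadjusted p under 0.05, 22 by DESeq2 and 1 by edgeR. The called row is 5S_rRNA, which read 15.2 ± 7.22 in S2Ba and 37.6 ± 8.81 in S2Bb on high salt (log2 difference -1.37) and 28.9 ± 13.2 and 11.1 ± 2.48 on normal salt (1.23). The difference of differences was -2.60 (adjusted p 0.00971). That RNA is encoded by many near-identical copies, so the row is uncertain. For Kcnab1 the diets differed by -0.27 (95% interval -0.78 to 0.24) and for Agtr1b by 0.50 (95% interval -0.03 to 1.03), and neither passed.

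**Figure D3:**
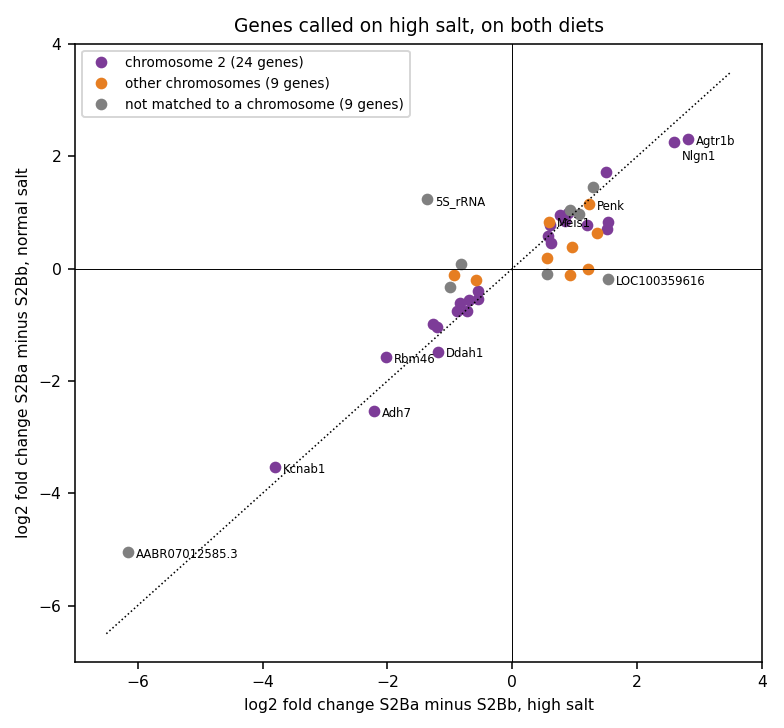
Log2 fold change (S2Ba minus S2Bb) of the 42 genes called on high salt (x axis) and the same genes on normal salt (y axis); the dotted line marks equal values. The 24 chromosome 2 genes lie in the quadrants of equal sign, and 5S_rRNA lies at -1.37 and 1.23.

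Of the genes placed on other chromosomes, Meis1 on chromosome 14 was the one whose call held in every alternative. It encodes a homeobox transcription factor that partners Hox proteins. It read 92.3 to 117 in S2Ba and 58.4 to 73.3, median 66.5, in S2Bb, so the groups were apart. The log2 difference was 0.58 (SE 0.08, adjusted p 0.00509) on high salt and 0.84 (adjusted p 1.70e-04) on normal salt. Penk, the precursor of the enkephalin peptides, on chromosome 5, read 40.3 to 76.1 in S2Ba and 14.7 to 39.4, median 24.5, in S2Bb (log2 difference 1.22, adjusted p 0.0425). Both strains had less Penk on normal salt, at 13.3 ± 6.16 and 6.54 ± 5.41, where the difference of 1.15 did not pass (adjusted p 0.184). Penk was called in 3 of the 11 fits that left out 1 library. Mal, a protein of membrane sorting, read 9.72 ± 3.82 against 3.31 ± 0.662 (1.35, adjusted p 0.0321).

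Tspan6, a tetraspanin gene on chromosome X, was higher in S2Ba by 0.55 (adjusted p 0.0272). Kif5a, a kinesin motor gene on chromosome 7, and Map7d3, a gene of a microtubule-binding protein on chromosome X, were lower, with differences of -0.93 and -0.59 (adjusted p 0.0291 and 0.0477). Rps27a-ps1 and the row under the symbol Mir22 were higher in S2Ba by 0.93 and 0.96. Rps27a-ps1 is a pseudogene of a ribosomal protein gene, and Mir22 shares its place with a host transcript, so reads in both rows may come from near-identical or overlapping genes, and strand was not stated. LOC100362366 on chromosome 3 was higher by 1.22 (adjusted p 0.0193). The calls of Mal, Tspan6, Kif5a, Map7d3, Rps27a-ps1, Mir22 and LOC100362366 were each lost in at least one fit that left out 1 library.

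Rows whose symbol was not matched to a chromosome hold the most extreme value of the comparison. AABR07012585.3 read 0.0842 to 0.325 in S2Ba, 13 reads in all, and 38.9 to 62.1, median 50.2, in S2Bb, 3502 reads in all. Its log2 difference was -6.15 (SE 0.14, adjusted p 8.95e-12 in limma), and it was -5.04 on normal salt. AABR07043421.1 had the tightest groups, 40.2 to 44.3 in S2Ba and 18.9 to 20.8 in S2Bb, with a difference of 1.07 (SE 0.06, adjusted p 9.29e-07) and 0.97 on normal salt. Neither symbol was matched to the annotation used, so the chromosome of these rows was not assigned here. Of the other unmatched rows AABR07037536.1, AABR07012047.1, LOC498555 and LOC100359616 were higher in S2Ba, by 1.29, 0.93, 0.56 and 1.54, and AABR07032532.1 and AC136563.3 were lower, with differences of -1.01 and -0.83.

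The vascular gene lists were counted next, and the lists were chosen with earlier results of these data known. Over 24 lists of pathways 5 of 439 tested members were called, with a gene in more than 1 list counted in each. All 5 are chromosome 2 genes described above. The called share was 0.314% of all genes and 2.98% of tested chromosome 2 genes. Of 13 tested renin-angiotensin and endothelin genes 1 was higher (Agtr1b) and 0 lower, with a median log2 difference of -0.11 beside 0.00 over all genes. Of 28 potassium and calcium channel genes 0 were higher and 1 lower (Kcnab1), median -0.13; Kcnc4, higher in S2Ba, is not in that list. Of 18 sodium and chloride transport genes 1 was lower (Slc9b1), median 0.04, and of 16 calcium handling genes 1 was higher (Ccdc109b), median 0.03.

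Of 15 genes of the nitric oxide and cGMP pathway 1 was lower (Ddah1), with a list median of -0.22. Another 4 were lower at an unadjusted p under 0.05 without passing the adjustment, a threshold that 11.7% of all genes and 21.2% of chromosome 2 genes passed in either direction. Of these 5 genes, 4 (Ddah1, Gucy1b3, Gucy1a3 and Pde5a) lie on chromosome 2. Gucy1b3, a subunit of the nitric oxide receptor guanylate cyclase, read 57.1 to 76.5 in S2Ba and 78.4 to 102.8 in S2Bb, without overlap (log2 difference -0.32, adjusted p 0.218). Its partner subunit Gucy1a3 read 161 ± 24.97 against 222.5 ± 64.2 (adjusted p 0.387), and Pde5a, which degrades cGMP, 218 ± 25.2 against 278 ± 36.4 (adjusted p 0.235). On normal salt 2 genes of the list were called, Ddah1 and Pde5a. Pde5a was lower in S2Ba there without overlap (log2 difference -0.42, adjusted p 0.0105 in limma). Npr2, a natriuretic peptide receptor that makes cGMP, differed by -0.21 (adjusted p 0.417). Other lists had lower medians than this pathway, each without a call. They were the core clock repressors (-0.57), clock output (-0.38) and the glucocorticoid response (-0.23).

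No member was called in the lists of contractile genes (21 tested), collagens (16), elastic fibre and matricellular genes (29), inflammatory mediators (25), interferon response (24), oxidant and antioxidant genes (24) or cell cycle (23), nor in any of the 14 lists of cell type markers. At an unadjusted p under 0.05, the pathway lists just named held, in that order, 2, 2, 2, 3, 1, 3 and 2 genes, and the 83 tested markers held 6 higher and 5 lower, beside 11.7% of all genes. Medians of these pathway lists ran from -0.10 for collagens to 0.19 for the cell cycle. Medians of the marker lists ran from -0.37 for adipocytes to 1.79 for erythroid cells. They were -0.31 for mast cells, -0.16 for fibroblasts, 0.09 for macrophages and 0.19 for T and NK cells. edgeR called none of these genes, and DESeq2 called Gpx1 and the erythroid marker Hbb. The smallest adjusted p among them belonged to Gpx1, a glutathione peroxidase, which read 417 to 594 in S2Ba and 303 to 395 in S2Bb without overlap (log2 difference 0.50, adjusted p 0.0733). Of 19 heparan sulfate genes 0 were called, and Sulf2, which removes sulfate groups from heparan sulfate outside the cell, read 126 ± 10.1 against 167 ± 19.3 (log2 difference -0.40, adjusted p 0.0867). At an unadjusted p 2 genes of that list were higher and 1 lower, edgeR called 0 and DESeq2 called 1, Sulf2.

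**Figure D4:**
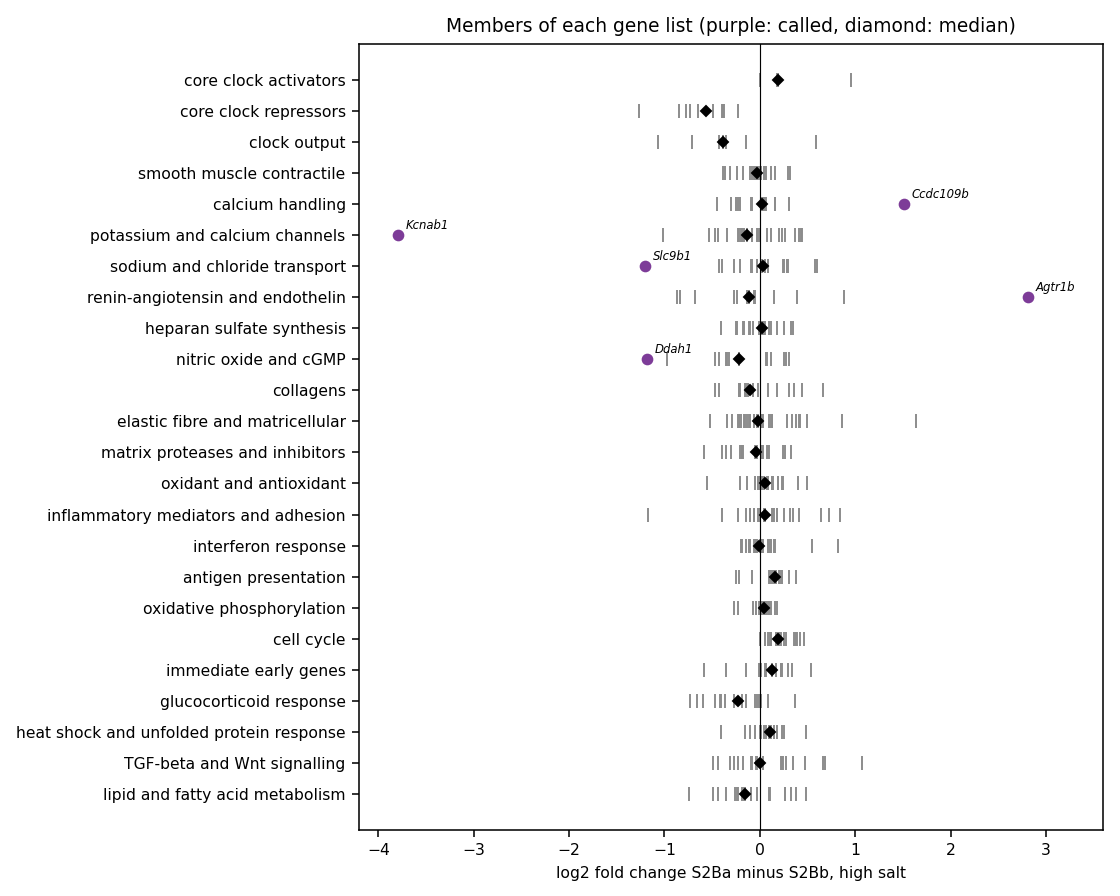
Log2 fold change (S2Ba minus S2Bb, high salt) of every tested member of 24 gene lists; ticks are members that were not called, purple points are called members and diamonds are list medians. The 5 called members are Kcnab1 (-3.80), Slc9b1 (-1.21), Ddah1 (-1.19), Ccdc109b (1.51) and Agtr1b (2.81).

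The study singled out Enpep and Hs2st1 from these samples, so their values are no independent evidence. Enpep encodes aminopeptidase A, which cleaves angiotensin II to angiotensin III. It read 48.5, 77.4, 71.1, 34.4 and 40.1 in S2Ba and 55.8 to 207.4, median 71.4, in S2Bb, where replicate 1 stood far above the others. The groups overlapped, and the log2 difference of -0.68 (SE 0.31) did not pass (adjusted p 0.423 in limma). On normal salt Enpep read 16.01 ± 4.401 in S2Ba and 53.1 ± 8.97 in S2Bb (log2 difference -1.72, adjusted p 6.73e-05). The change of that difference between diets was 1.04 (adjusted p 0.418). Hs2st1, which adds sulfate to heparan sulfate chains, read 31.4 ± 6.44 and 24.6 ± 3.09 (log2 difference 0.33, adjusted p 0.372).

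Values of circadian clock genes differed among libraries of the same group. The clock is a loop in which Arntl and Clock, with Npas2, drive the Per, Cry and Nr1d genes, which repress them in turn, so Arntl and the output gene Dbp peak at opposite times of day. Dbp read 161 and 213 in S2Bb replicates 5 and 6 and 2.53 to 30.2 in the other 9 libraries. Arntl read 4.44 and 2.83 in the same pair, 20.6 in S2Bb replicate 4, 17.4 in S2Ba replicate 4 and 40.3 to 82.9 in the other 7. The time of tissue collection is not stated.

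On high salt 0 of 21 tested clock genes were called between the strains in limma, edgeR or DESeq2, and 3 had an unadjusted p under 0.05. Those were Per1, Hlf and Cry2, all lower in S2Ba, with log2 differences of -0.73, -1.07 and -0.38 and adjusted p of 0.379, 0.407 and 0.409. The repressors Per2, Per3, Nr1d1 and Nr1d2 differed by -0.65, -0.84, -0.49 and -0.38 on high salt, none passing. On normal salt 1 repressor, Nr1d2, and 1 output gene, Dbp, were called, both lower in S2Ba. Their log2 differences there were -1.02 and -1.25 (adjusted p 0.0105 and 0.0101 in limma). The first component of the clock genes held 67.3% of their variance. With the first 2 clock components as covariates 11 genes were called in place of 42, 7 of them on chromosome 2. They were the 11 whose call held in every alternative. That fit is itself 1 of the alternatives and called the fewest genes, so the held genes could only come from its calls.

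**Figure D5:**
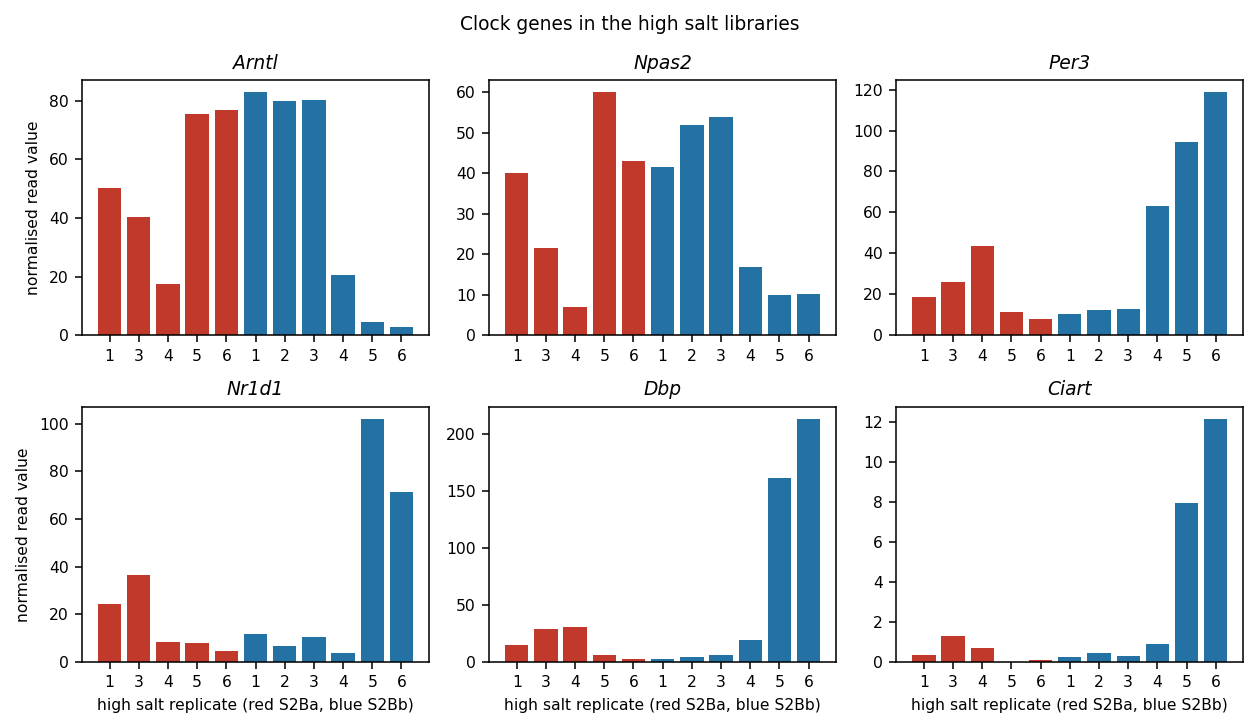
Normalised read values of 6 clock genes in each high salt library, S2Ba in red and S2Bb in blue, with the replicate number under each bar. Dbp reached 161 and 213 in S2Bb replicates 5 and 6, where Arntl read 4.44 and 2.83.

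The rows with symbols in Mt- and the erythroid genes leaned with strain in the high salt libraries. Of 13 tested genes of the mitochondrial genome (symbols in Mt-) 12 were lower in S2Ba, 8 at an unadjusted p under 0.05 and 0 after adjustment in limma or edgeR (smallest limma adjusted p 0.0733), and 6 were called by DESeq2, with a median log2 difference of -0.51. Mt-cyb, a subunit of respiratory complex III, read 521 to 732 in S2Ba and 713 to 1343 in S2Bb. These genes took 1.51% to 1.72% of the reads in S2Ba libraries and 1.74% to 2.47% in S2Bb libraries. On normal salt the shares overlapped, at 1.47% to 2.70% in S2Ba and 1.61% to 2.69% in S2Bb. These shares cover only rows with symbols in Mt-. They leave out AY172581.24, the row with the most reads in each library. The share of AY172581.24 was far larger and overlapped on high salt, at 15.1% to 17.5% in S2Ba and 14.4% to 18.6% in S2Bb. All 4 tested erythroid genes, Hbb, Hba-a1, Hba-a2 and Alas2, were higher in S2Ba at an unadjusted p under 0.05, by 1.74 to 1.86, and 0 passed in limma (adjusted p 0.281 to 0.33) or edgeR; DESeq2 called Hbb. Hbb read 956 in S2Ba replicate 3 and 20.1 to 308 in the other 10 libraries. On normal salt the Hbb difference was -0.44 (adjusted p 0.816 in limma), the opposite sign. The part of these high salt differences in the 42 calls was not tested.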

How the data were processed

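Total RNA of 36 labelled aorta samples was sequenced, and 34 libraries have values. The tools named, per the submitters' processing notes, include STAR 2.3.1 and edgeR 3.6.8, with no roles or settings; genome build, counter and strand setting are not given. The authors deposited a signal value per gene, which is reads over a size factor: in the S2Ba and S2Bb libraries 100% of values came out as whole reads with a tolerance of 0.01 reads. Because the deposited signal is normalised, limma 3.58.1 with an intensity trend (R 4.3.3) was fitted to log2(value + 0.5) of the 11 high salt libraries, for the 13360 of 26106 genes with a mean of at least 0.5. P-values were 2-sided and Benjamini-Hochberg adjusted over all genes tested, and genes were called under 0.05. Fold changes on this scale understate those of low genes. The same fit was made on normal salt, and the diets were compared in a fit of 4 groups. Count tests on the recovered reads (edgeR 4.0.16, DESeq2 1.42.0), other pseudocounts, filters and scalings, clock covariates and each library left out were alternatives. The script was tested on simulated data. Chromosomes and gene order came from RefSeq GRCr8, matched by symbol for 17592 genes (67.4%). Intervals and floors cover counting or replicate error only.

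Members, lists and tests were chosen with earlier results of these data known. Named genes were the 12 calls of lowest adjusted p per direction and the 10 called chromosome 2 genes of largest change (both with mean 1 or more, the former without clone-type symbols), as many as 4 calls per list, Enpep, Hs2st1 and all clock genes; the 17 other called genes, Agtr1a, Slc9b2, Gpx1, Sulf2, the cGMP genes beside Ddah1, Mt-cyb and the erythroid genes were chosen after their values were seen.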

Additional observations from a re-analysis of the deposited data

Results flagged for a closer look

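In 5 of the genes above, a single high salt library lay far from the others of its group by Dixon's criterion, which chance meets in about 1 in 20 groups. The genes above include 48 named genes and 17 other calls, each with both high salt groups. At that rate flags arise by chance, and 5 are not read as an excess. Kcnab1 was 4.98 in S2Ba replicate 5, with the next at 2.53. Rbm46 was 0.0812 in S2Ba replicate 1, with 0 in the other 4 libraries. That value is a single read, which meets the criterion by itself. LOC100359616 was 4.14 in S2Ba replicate 1, with the next at 2.44. Tigd4 was 1.58 in S2Bb replicate 1, with the next at 0.542, and Enpep was 207.4 in the same library, with the next at 90.1.

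The strain difference of 5S_rRNA had opposite signs on the diets, and the change from normal to high salt was -2.60 on the log2 scale (limma interaction, adjusted p 0.00971).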

How the results depend on the processing

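On high salt, 42 genes were called, 24 on chromosome 2. The counts were 23 and 12 with a mean value of at least 2 required, 192 and 55 by DESeq2 on recovered reads, and 11 and 7 with clock components as covariates. Without S2Bb replicates 2 and 3, whose title numbers lie apart, they were 28 and 11, and 18 of the 42 genes remained. Leaving out 1 library gave 12 to 102 genes, and 8 to 42 on chromosome 2. On normal salt the 140 calls became 537 by DESeq2, 244 with the 4 groups in one fit and 7 with clock components. The single diet interaction became 22 by DESeq2, 0 with clock components, 2 with no intensity trend, and 1 to 2 when 1 library was left out. edgeR called 34 genes on high salt, all among the 42, and TMM or upper quartile scaling kept all 42. With unmatched rows counted in, chromosome 2 held 57.1% of the calls, 28.7% by DESeq2 and 69.2% without S2Ba replicate 1. The 72.7% given above is the share of the 33 matched calls only. The causes were not tested. Over 1550 alternative values of single genes, 331 lost a call, 1 gained one and 0 reversed sign. No paired analysis was possible because replicate numbers only follow the order of the records. Genes with few reads, such as Rbm46 and Kcnc4, are limited by depth.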
